A study of Rattus norvegicus with 12 samples.

Results

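Smooth muscle contractile genes and the tropomyosin genes were followed through fetal rat testes of a control and a vinclozolin lineage. The 9 genes were chosen by name: Acta2, Actg2, Myh11, Tagln and Cnn1 as smooth muscle genes, and Tpm1, Tpm2, Tpm3 and Tpm4 as tropomyosins. They are 9 of the 14217 genes that the array annotation names with a probe set of their own, and it gave them 34 of the 31099 probe sets. Of these, 29 carried 1 gene symbol, 6 for the smooth muscle genes and 23 for the tropomyosins. The other 5 were annotated to both Acta2 and Actc1 and were not assigned to either gene; their signals were 0.7 to 51.5, and 2 of them were above the filter on low signal. That filter, on the mean over all 12 arrays, passed 26 of the 29.

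Testes were taken at embryonic day 16 from F1, F2 and F3 male embryos. The founder females had been injected intraperitoneally on pregnancy days 8 to 14 with the antiandrogenic fungicide vinclozolin (100 mg/kg/day) or, for the control lineage, with a sesame oil and DMSO vehicle. F1 embryos were in the womb at dosing. F2 embryos came from matings of F1 animals and F3 embryos from matings of F2 animals, with no further dosing in the protocols, which describe the mated F1 animals as from different control lines in both lineages. The titles were followed for the lineage of each sample. Each of the 6 groups had 2 arrays, and each array held RNA of a pool of about 10 testes. Whether both pools of a group held different litters is not stated, so p-values measure only the spread between these RNA pools, which may be partly technical.

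The seminiferous cords of a fetal testis become wrapped by peritubular myoid cells, flat contractile cells that share much of their gene set with the smooth muscle of vessel walls. In such cells actin filaments slide on myosin, and tropomyosin, a coiled-coil protein lying along the actin filament, controls where myosin and other partners can bind. The 4 tropomyosin genes each give several proteins through alternative start sites and exons, and many of these are cytoskeletal forms made in nearly all cells. Array probe sets may therefore read different transcripts of a single tropomyosin gene, or several genes of the family at once where the sequence is shared. Probe sets whose names end in _s_at or _x_at are marked by the manufacturer as matching more than a single transcript family, and those in _a_at as matching several transcripts of the same gene.

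All signals below are the deposited linear intensities. Differences are vinclozolin minus control on the log2(signal + 16) scale, which understates the change of dim probe sets, and are given with their standard error (SE, n = 2 arrays per group). A difference was called at a Benjamini-Hochberg adjusted p under 0.05 in a limma fit over 21729 probe sets. Because signals of different probe sets are not on a common scale, a level is tested only within its probe set. Where a probe set is called brighter or dimmer, this describes its signal on the array, not the amount of a transcript. For 2 arrays against 2 the smallest p of an exact permutation test is 0.333, and the calls below use a spread estimated from all 6 groups.

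In F1, 11 of the 26 tested probe sets were called, 2 higher and 9 lower, where 23.1% of all probe sets were called (9.41% higher and 13.7% lower). In F2, 11 were called, 1 higher and 10 lower, against 14.3% of all (4.7% higher and 9.65% lower). In F3, 7 were called, 1 higher and 6 lower, against 3.11% of all (1.05% higher and 2.06% lower). The median difference of the 5 smooth muscle probe sets was −0.23, −0.19 and −0.11 in F1, F2 and F3, that of the 21 tropomyosin probe sets −0.11, −0.34 and −0.22, and that of all tested probe sets −0.01 in each generation. Of the 26, 7 were called in the same direction in all 3 generations, against 1.22% of all tested probe sets. Of these 7, 6 were Tpm3 probe sets, and 3 of those share a design sequence. The opposite directions of Tpm3 probe sets were known when the gene was chosen, so this is no independent comparison. None of the 26 was called in opposite directions in different generations, and over all 21729 tested probe sets only 30 were. Leaving out F3 control replicate 2 or F3 vinclozolin replicate 1 lowered the F3 count from 7 to 3 or 4.

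The arrays of the lineages also differed in a sign of RNA quality. For beta-actin, the signal of the 5' control probe set divided by that of the 3' one lay between 0.423 and 0.471 on the 6 control arrays. It lay between 0.149 and 0.192 on the F1, between 0.219 and 0.247 on the F2 and between 0.360 and 0.395 on the F3 vinclozolin arrays, so that it was lower on every vinclozolin array. The same ratio for GAPDH was 0.959 to 1.022 on control arrays, lower on F1 (0.651 to 0.718) and F2 (0.7208 to 0.7996) vinclozolin arrays, and within or just above the control range on F3 vinclozolin arrays (1.023 and 0.970). With the log2 of the beta-actin ratio as a covariate, limma called 0 of the 26 probe sets in F1 and in F2, where 4 and 7 had an unadjusted p under 0.05, and 6 of the 26 in F3. In that fit 0 of the 21729 probe sets were called in F1 or F2, with 2019 and 2775 at an unadjusted p under 0.05. The SE of the Acta2 difference in F1 was 0.10 without and 0.42 with the covariate. The part of the ratio in the differences below was not tested beyond this fit. Array medians were 44.5 to 47.1 on control and 40.5 to 42.8 on vinclozolin arrays.

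**Figure D1:**
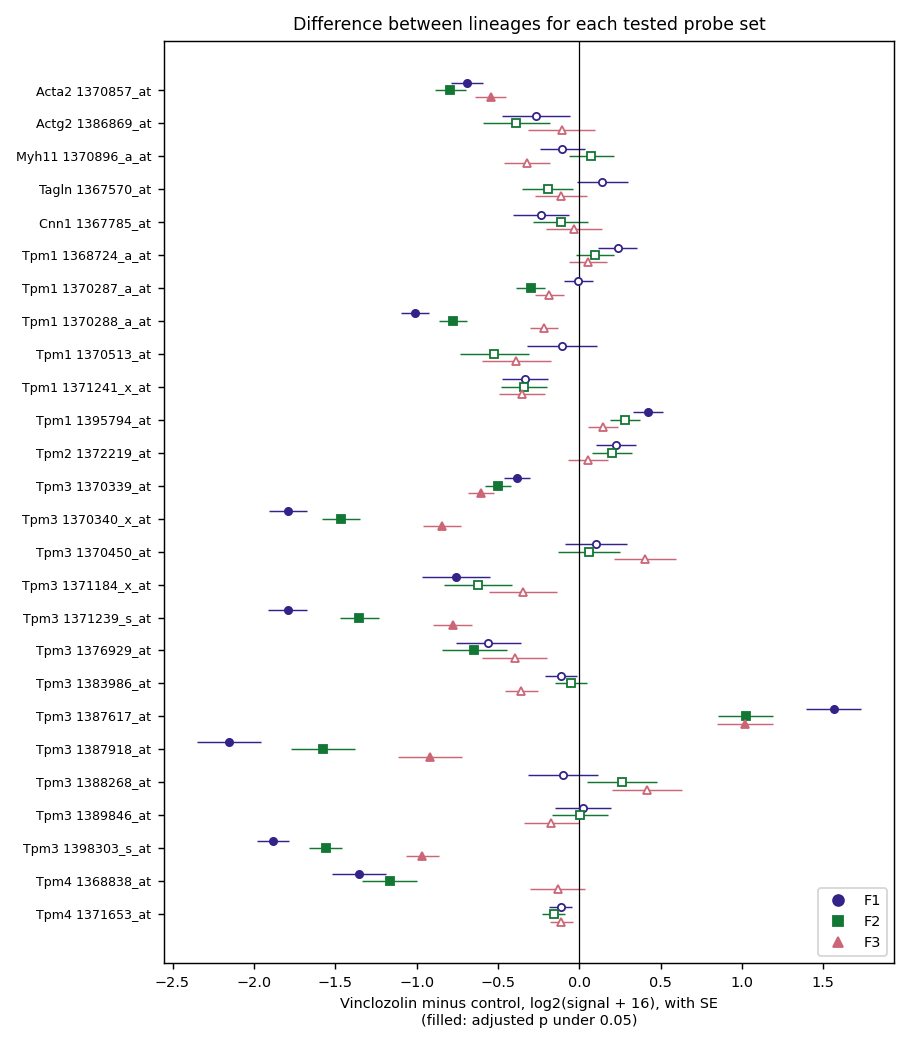
Vinclozolin minus control difference on the log2(signal + 16) scale (horizontal axis) with its SE for the 26 tested probe sets (rows), in F1 (circles), F2 (squares) and F3 (triangles), 2 arrays per group. Filled symbols have an adjusted p under 0.05; Acta2 and 5 Tpm3 probe sets are filled on the left in every generation, and Tpm3 1387617_at is filled on the right.

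Among the smooth muscle genes, Acta2 alone was called in this fit. Acta2 encodes smooth muscle alpha-actin, the actin of myoid and vascular smooth muscle filaments and the usual marker of peritubular myoid cells. Its probe set 1370857_at gave signals of 458 and 493 on F1 control arrays, 470.4 and 467 on F2 control arrays and 468 and 484 on F3 control arrays. On vinclozolin arrays it gave 304 and 273 in F1, 254 and 274 in F2, and 307 and 335 in F3. The 6 control arrays all lay above the 6 vinclozolin arrays, with no overlap, as in 7.73% of all tested probe sets.

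Acta2 fell by 0.69 ± 0.10 in F1 (adjusted p = 0.000157), by 0.79 ± 0.10 in F2 (adjusted p = 0.000152) and by 0.55 ± 0.10 in F3 (adjusted p = 0.00735). On this scale these are 1.61-fold, 1.73-fold and 1.46-fold lower values. Dependence on generation was not called (F test, adjusted p = 0.535), nor were differences among the 3 control groups (adjusted p = 1). In order of mean signal, the 3 control groups came first (476, 475 and 469) with overlapping ranges. The F3 vinclozolin group (321 ± 20, SD, n = 2) followed without touching its neighbours, and the F1 (289 ± 22, SD, n = 2) and F2 (264 ± 14, SD, n = 2) vinclozolin groups overlapped each other. The F3 call was lost without F3 control replicate 1 or 2 or F3 vinclozolin replicate 1, with adjusted p up to 0.122. With the beta-actin ratio as covariate the differences were −0.60, −0.74 and −0.53, of which that of F3 was called (adjusted p = 0.0478) and those of F1 and F2 were not (adjusted p = 0.673 and 0.315).

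The sequence before the Acta2 start site is shown because transcription of smooth muscle genes is known to run through serum response factor, which binds the CArG box, and through TEAD factors, which bind the MCAT motif. The 250 bases upstream are from RefSeq (GRCr8, chr1:241172504-241172753, minus strand), with capitals for a CArG box with at most 1 of its 10 letters departing and for MCAT (CATTCC or GGAATG, so both strands):

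Acta2: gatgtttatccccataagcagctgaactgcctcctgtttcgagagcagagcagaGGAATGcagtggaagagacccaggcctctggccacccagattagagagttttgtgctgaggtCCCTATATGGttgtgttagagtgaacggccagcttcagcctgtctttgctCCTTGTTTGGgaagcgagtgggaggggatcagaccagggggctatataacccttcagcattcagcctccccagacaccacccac

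The exact CArG box had no match in this window. CCCTATATGG, 134 to 125 bases before the start site, and CCTTGTTTGG, 84 to 75 bases before it, departed in 1 letter, and GGAATG lay 196 to 191 bases before it. Of 33465 upstream windows of this length in the rat table, 1.5% held an exact CArG box, 18.7% a CArG box with at most 1 departure and 12.1% an MCAT. RefSeq windows were matched for 7 of the 9 genes, and those of Actg2, Cnn1, Tpm2 and Tpm4 held neither motif.

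The other contractile genes were not called in any generation. Tagln, which encodes transgelin, an actin-bundling protein of smooth muscle, had signals of 277 to 332 on control arrays and 249 to 383 on vinclozolin arrays. Its 6 vinclozolin values spanned its whole control range. The differences were 0.14 ± 0.16, −0.19 ± 0.16 and −0.11 ± 0.16 in F1, F2 and F3 (adjusted p = 0.566, 0.453 and 0.766).

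Myh11, the smooth muscle myosin heavy chain, gave 96 and 109 in F1 controls, 86 and 107 in F2 controls and 83 and 85 in F3 controls at 1370896_a_at. Vinclozolin arrays gave 103 and 86 in F1, 96 and 109 in F2, and 62 and 66 in F3. Both F3 vinclozolin arrays lay below every other array, but the F3 difference of −0.32 ± 0.14 was not called (adjusted p = 0.232), and F1 and F2 gave −0.10 ± 0.14 and 0.07 ± 0.14. Its other probe set, 1381219_at, did not pass the filter, with signals of 3.7 to 24.1 on control and 2.4 to 14.6 on vinclozolin arrays.

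Cnn1, calponin, which binds actin and slows the myosin ATPase, had signals of 33.1 to 49.8 on control and 34.8 to 43.7 on vinclozolin arrays. Its differences were −0.23 ± 0.17, −0.12 ± 0.17 and −0.03 ± 0.17. Actg2, the gamma-actin of visceral smooth muscle, lay between 29.1 and 52.3 on control and between 27.2 and 35.7 on vinclozolin arrays, with differences of −0.27 ± 0.21, −0.39 ± 0.21 and −0.11 ± 0.21. At such low signals the pseudocount of 16 shrinks a difference, and the adjusted p of both genes was at least 0.239 in every generation.

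**Figure D2:**
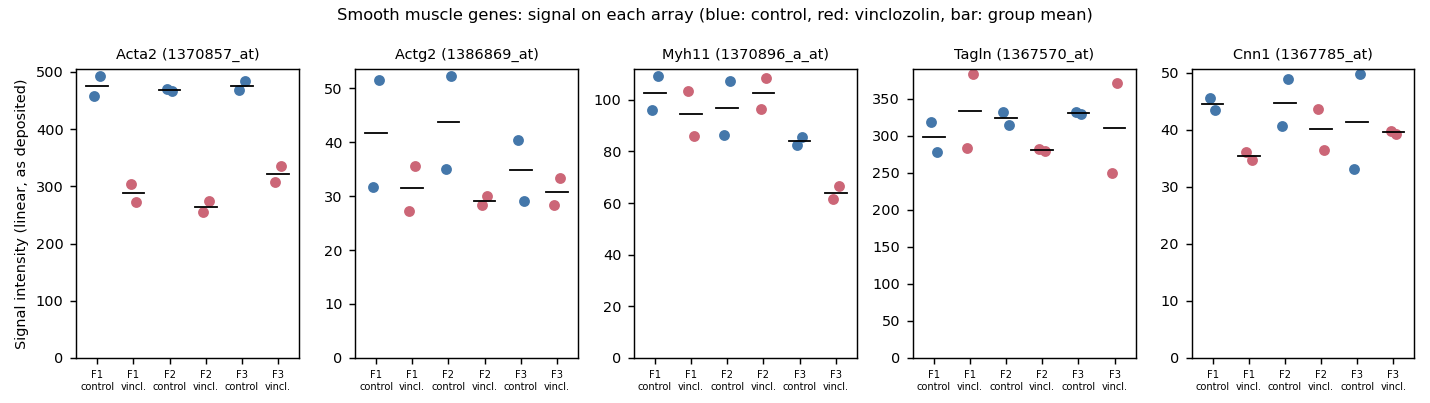
Deposited linear signal (vertical axis, from 0) of the tested probe sets of Acta2, Actg2, Myh11, Tagln and Cnn1 on each of the 12 arrays, by group; points are arrays (blue control, red vinclozolin) and bars group means. Acta2 values of 254 to 335 on vinclozolin arrays lie apart from 458 to 493 on control arrays, while the other 4 genes overlap between the lineages.

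Tpm3 encodes tropomyosins of slow muscle fibres and, from another start, cytoskeletal tropomyosins. It had 12 tested probe sets, the most of 11287 genes on this array; the next highest number was 7. RefSeq listed 3 start sites, the second 6482 bases after the first and the third 42 bases after the second. The upstream windows of the first and second start sites (GRCr8, plus strand, chr2:177814633-177814882 and chr2:177821115-177821364) are shown because the probe sets of Tpm3 moved in opposite directions, and the capitals mark a CArG box with at most 1 departure:

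Tpm3 first start: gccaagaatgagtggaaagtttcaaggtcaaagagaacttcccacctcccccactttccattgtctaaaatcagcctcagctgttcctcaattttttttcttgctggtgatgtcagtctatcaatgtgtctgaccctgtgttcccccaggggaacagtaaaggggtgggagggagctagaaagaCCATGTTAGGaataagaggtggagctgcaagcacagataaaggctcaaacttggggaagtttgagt
Tpm3 second start: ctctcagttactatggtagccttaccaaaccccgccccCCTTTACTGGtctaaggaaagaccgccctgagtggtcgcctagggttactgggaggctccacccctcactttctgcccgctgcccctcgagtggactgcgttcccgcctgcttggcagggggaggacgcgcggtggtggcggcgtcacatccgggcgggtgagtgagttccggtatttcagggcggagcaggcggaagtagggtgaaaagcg

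The first window held CCATGTTAGG, 66 to 57 bases before the start site, and the second CCTTTACTGG, 212 to 203 bases before it. Neither held an exact CArG box or an MCAT. The files used here do not say which of these starts each probe set reads.

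In each generation 1 Tpm3 probe set was higher and several were lower: 1 and 6 of 12 in F1, 1 and 6 in F2, and 1 and 5 in F3. Of all tested probe sets, 9.41% were called higher and 13.7% lower in F1, 4.7% and 9.65% in F2, and 1.05% and 2.06% in F3. The opposite directions of Tpm3 probe sets were known when the gene was chosen. Of the 12, 6 were called in the same direction in all 3 generations, with 1 higher and 5 lower. The share over all tested probe sets was 1.22%.

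The probe set that rose was 1387617_at. It gave 72.5 and 69.0 in F1 controls, 77.5 and 50.0 in F2 controls and 110 and 82.6 in F3 controls. Vinclozolin arrays gave 231 and 250 in F1, 151 and 137 in F2, and 237 and 184 in F3. All 6 vinclozolin arrays lay above all 6 control arrays, as did 5.52% of all tested probe sets.

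The differences of 1387617_at were 1.56 ± 0.17 in F1 (adjusted p = 2.30e-05), 1.02 ± 0.17 in F2 (adjusted p = 0.00122) and 1.02 ± 0.17 in F3 (adjusted p = 0.00535). Its order of group means ran from F1 vinclozolin (240 ± 14, SD, n = 2) and F3 vinclozolin (211 ± 38), which overlapped, through F2 vinclozolin (144 ± 10) and F3 control (96 ± 19) to F1 control (71 ± 2) and F2 control (64 ± 19), which overlapped again. The F3 call was lost without F3 control replicate 2 or F3 vinclozolin replicate 1 (adjusted p up to 0.115). Dependence on generation was not called (adjusted p = 0.319). With the beta-actin ratio as covariate the values were 1.40, 0.92 and 0.99, with the F3 value called (adjusted p = 0.0478) and the F1 and F2 values not (adjusted p = 0.597 and 0.488).

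The probe sets that fell most were 4 of the 12: 1398303_s_at, 1370340_x_at, 1387918_at and 1371239_s_at. At 1398303_s_at the control arrays gave 790.2 and 786 in F1, 935 and 919 in F2, and 876 and 842 in F3, and the vinclozolin arrays 210.3 and 194 in F1, 326 and 284 in F2, and 470.0 and 398 in F3. The vinclozolin groups were ordered F3 over F2 over F1, none of them touching the next or any control group. The falls were −1.88 ± 0.10 (adjusted p = 5.84e-08), −1.56 ± 0.10 (adjusted p = 1.30e-06) and −0.96 ± 0.10 (adjusted p = 0.000183), which is 3.69-fold, 2.95-fold and 1.95-fold lower on this scale.

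At 1370340_x_at signals of 665 to 768 on control arrays stood against vinclozolin arrays at 216 and 166 in F1, 289 and 242 in F2, and 399 and 385 in F3. The differences were −1.79 ± 0.12, −1.46 ± 0.12 and −0.85 ± 0.12. Nearly the same values came from 1371239_s_at, with control signals of 709 to 824 and differences of −1.79 ± 0.12, −1.35 ± 0.12 and −0.78 ± 0.12. At 1387918_at the control arrays gave 651 to 760 and the vinclozolin arrays 197 and 98.5, 266 and 210.1, and 363 and 322, with differences of −2.15 ± 0.20, −1.57 ± 0.20 and −0.92 ± 0.20. All 12 of these values were called, and on all 4 probe sets the control and vinclozolin arrays did not overlap. Vinclozolin arrays lay below all control arrays in 7.73% of all tested probe sets. The F3 call of 1387918_at was lost when any of the 4 F3 arrays was left out (adjusted p up to 0.189), and that of 1371239_s_at without F3 control replicate 2 or F3 vinclozolin replicate 2 (adjusted p up to 0.0603).

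The size of the fall depended on generation at 1398303_s_at (F test, adjusted p = 0.00830), 1371239_s_at (adjusted p = 0.0130) and 1370340_x_at (adjusted p = 0.0155), but was not called at 1387918_at (adjusted p = 0.0623). Across all tested probe sets 2.6% were called in this test, and of the 26 probe sets 5 were. Without F3 control replicate 2 that count was 0, and it was 1 without F3 control replicate 1 or F3 vinclozolin replicate 1 and 2 without either F1 control array. The falls became smaller from F1 to F2 to F3, and the 5' to 3' ratio of beta-actin stood at 0.149 to 0.192, 0.219 to 0.247 and 0.360 to 0.395 on the same arrays. With that ratio as covariate, the differences of 1398303_s_at were −1.16, −1.09 and −0.83 and that of F3 was called (adjusted p = 0.00421). Those of 1370340_x_at became −0.57, −0.67 and −0.62 and those of 1371239_s_at −0.37, −0.42 and −0.52, with the F3 values called (adjusted p = 0.0213 and 0.0268) and the others not. Those of 1387918_at became 0.70, 0.29 and −0.39 and none was called.

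By the annotation, 3 of these were designed from a shared sequence: 1370340_x_at, 1387918_at and 1398303_s_at. They are not independent readings, and the pairwise differences among them were not called in any generation, from −0.27 ± 0.22 to 0.36 ± 0.18. By contrast, 1371239_s_at and 1388268_at also shared a design sequence but differed. The latter, at signals of 16.8 to 31.1 on control and 17.4 to 37.9 on vinclozolin arrays, gave −0.10 ± 0.21, 0.26 ± 0.21 and 0.41 ± 0.21 and was not called. The difference between the 2 was −1.69 ± 0.21, −1.61 ± 0.21 and −1.19 ± 0.21 (limma over all pairs, adjusted p = 0.000164, 0.000546 and 0.0187).

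A brighter Tpm3 probe set, 1370339_at, fell less. It gave 1477 and 1527 in F1 controls, 1603 and 1636 in F2 controls and 1527 and 1643 in F3 controls, and on vinclozolin arrays 1195 and 1104 in F1, 1141 and 1142 in F2, and 995 and 1079 in F3. The groups of the lineages did not overlap, as at 7.73% of all tested probe sets with vinclozolin lower. Its differences were −0.38 ± 0.08 (adjusted p = 0.00324), −0.50 ± 0.08 (adjusted p = 0.000958) and −0.60 ± 0.08 (adjusted p = 0.00117). Here the F3 value was the lowest of the 3, the reverse of the order at the 4 probe sets above, but dependence on generation was not called (adjusted p = 0.491).

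Another 2 dimmer probe sets were each called in a single generation. At 1371184_x_at the signal was 49.9 to 77.5 on control and 26.0 to 52.6 on vinclozolin arrays, and the F1 difference was −0.76 ± 0.21 (adjusted p = 0.0162). At 1376929_at it was 28.1 to 45.5 against 14.6 to 22.8, and the F2 difference was −0.64 ± 0.20 (adjusted p = 0.0417). Both calls depended on single arrays. The first was lost without F1 control replicate 1 or 2 or F1 vinclozolin replicate 1, and the second in 8 of 12 fits that left out an array, with adjusted p up to 0.133 and 0.247. Other alternatives added calls: 1371184_x_at in F2 (−0.62 ± 0.21) was called with the replicate block (adjusted p = 0.0331) and 4 other settings, and 1376929_at in F1 without F1 control replicate 1 or F1 vinclozolin replicate 1. In the mean of the 3 generations both were called lower, at −0.58 ± 0.12 (adjusted p = 0.00191) and −0.53 ± 0.11 (adjusted p = 0.00232).

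The remaining Tpm3 probe sets were not called in single generations. Control signals were 1022 to 1149 at 1383986_at, where the differences were −0.11, −0.05 and −0.36 (SE 0.10 each; adjusted p = 0.0667 in F3). The F3 value was called under 5 alternatives, among them array weights (adjusted p = 0.00546) and quantile normalization (adjusted p = 0.0423). The mean of the 3 differences there was −0.17 ± 0.06 and was called lower (adjusted p = 0.0300), where 19.2% of all probe sets were called lower. At 1370450_at they were 0.10, 0.06 and 0.41 (SE 0.19 each), and at 1389846_at 0.02, 0.00 and −0.17 (SE 0.17 each).

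**Figure D3:**
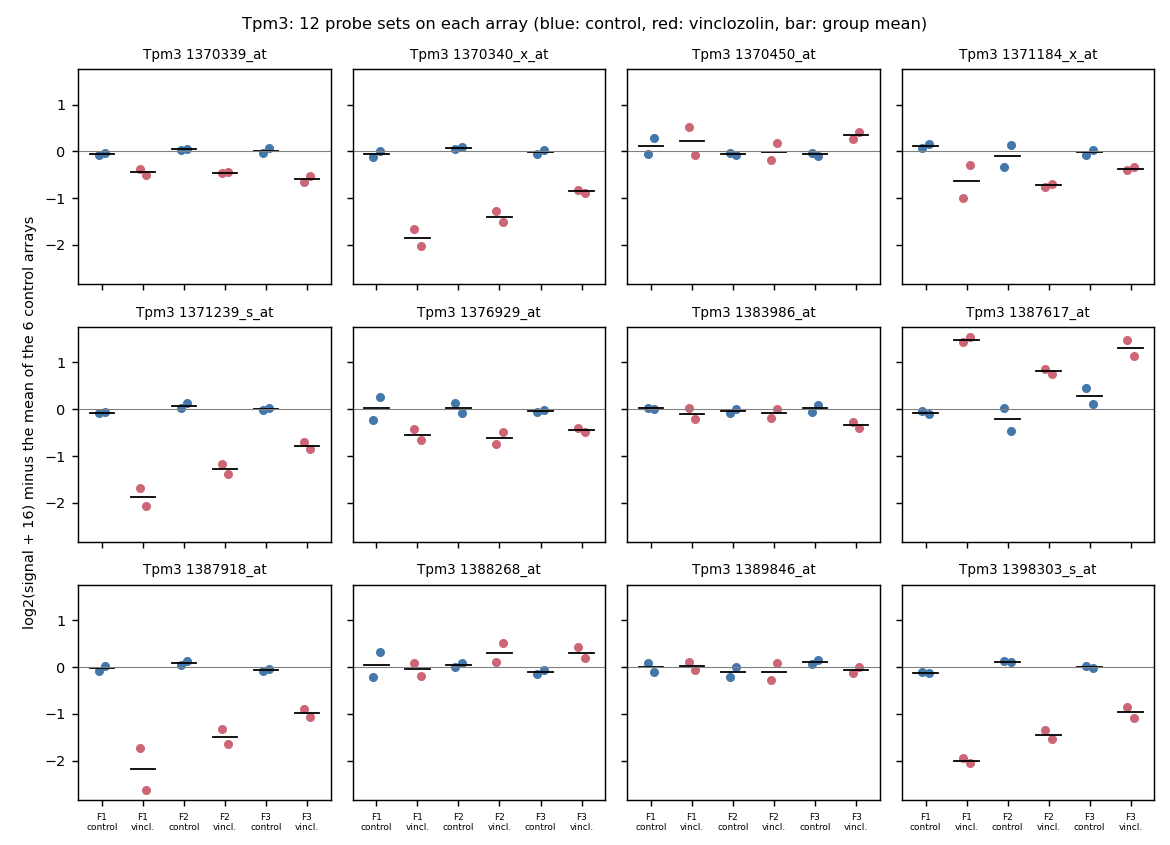
log2(signal + 16) of the 12 Tpm3 probe sets on each array, minus the mean of the 6 control arrays (vertical axis), by group; points are arrays (blue control, red vinclozolin) and bars group means. Vinclozolin arrays lie above the controls at 1387617_at and below them at 1398303_s_at, 1370340_x_at, 1371239_s_at and 1387918_at, where the F1 arrays are lowest.

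Whether probe sets of a gene changed unequally was tested on the log2 ratio of each pair within an array, over the 6158 pairs of tested probe sets that share a gene symbol. Of the 66 Tpm3 pairs, 42, 44 and 21 were called in F1, F2 and F3, where 37.3%, 29.7% and 2.34% of all pairs were called. In the mean of the 3 generations 53 of the 66 were called, against 48.6% of all pairs. The pairs share probe sets and are not independent. Opposite directions of Tpm3 probe sets were known when the gene was chosen, so the Tpm3 counts beside all pairs are descriptive only. The pair of 1387617_at and 1398303_s_at sets the probe set that rose against 1 that fell, so its values are descriptive too. Its log2 ratio differed by 3.45 ± 0.19 in F1, 2.58 ± 0.19 in F2 and 1.98 ± 0.19 in F3. The F test for dependence on generation called 2 of the 66 Tpm3 pairs, this pair among them (adjusted p = 0.0480). A share over all pairs was not computed for that test. Leaving out F3 control replicate 1 or 2 lowered the count of called pairs in F3, over all 82 pairs of the tropomyosin genes, from 21 to 4 or 0, and leaving out F3 vinclozolin replicate 1 or 2 lowered it to 1 or 4. In F2 the count went from 51 to 32 without F2 vinclozolin replicate 2.

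Tpm1 encodes the alpha-tropomyosins of striated and smooth muscle and several cytoskeletal forms. Its upstream window (RefSeq, GRCr8, chr8:76543416-76543665, minus strand) is shown beside that of Acta2 because both held the same motifs, in capitals as before:

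Tpm1: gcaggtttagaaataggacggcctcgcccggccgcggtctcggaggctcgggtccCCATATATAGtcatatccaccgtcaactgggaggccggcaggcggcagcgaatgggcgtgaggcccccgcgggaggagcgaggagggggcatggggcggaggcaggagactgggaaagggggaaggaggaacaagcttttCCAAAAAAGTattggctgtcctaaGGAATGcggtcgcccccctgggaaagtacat

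CCATATATAG lay 195 to 186 bases and CCAAAAAAGT 55 to 46 bases before the start site, each 1 letter from a CArG box, and GGAATG 31 to 26 bases before it. An exact CArG box was not among these letters. The Acta2 probe set was lower in all 3 generations, whereas Tpm1 differed by probe set.

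At 1370288_a_at Tpm1 gave 807 and 775 in F1 controls, 829 and 847 in F2 controls and 789 and 756 in F3 controls, against vinclozolin values of 383 and 386 in F1, 513 and 453 in F2, and 651 and 671 in F3. The lineages did not overlap in any generation or over all arrays, the latter as at 7.73% of all tested probe sets with vinclozolin lower. It fell by 1.01 ± 0.09 in F1 (adjusted p = 4.40e-06) and by 0.78 ± 0.09 in F2 (adjusted p = 7.99e-05), and gave −0.22 ± 0.09 in F3, which was not called (adjusted p = 0.187). The difference depended on generation (F test, adjusted p = 0.00816).

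At 1395794_at the direction was the opposite. Control arrays gave 463 and 453 in F1, 429 and 444 in F2, and 437 and 424 in F3, and vinclozolin arrays 569 and 671, 533 and 536, and 488 and 468. All vinclozolin arrays lay above all control arrays, as at 5.52% of all tested probe sets. It rose by 0.42 ± 0.09 in F1 (adjusted p = 0.00451), while 0.28 ± 0.09 in F2 and 0.15 ± 0.09 in F3 were not called (adjusted p = 0.0561 and 0.446). The F2 value was called under 6 alternatives, such as median centring (0.40, adjusted p = 0.0155), array weights (adjusted p = 0.0275) and the F2 arrays alone (adjusted p = 0.0421). With the F1 arrays alone the F1 rise was not called, and with the beta-actin ratio as covariate it was −0.04 (adjusted p = 0.985). Over the pair, the ratio of 1370288_a_at to 1395794_at changed by −1.43 ± 0.15, −1.06 ± 0.15 and −0.36 ± 0.15 (limma over all pairs, adjusted p = 7.08e-05, 0.000747 and 0.225).

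The brightest Tpm1 probe set, 1370287_a_at, had control signals of 1524 to 1887 and vinclozolin signals of 1404 to 1686, with differences of −0.01 ± 0.09, −0.30 ± 0.09 and −0.18 ± 0.09. Its F2 value was called (adjusted p = 0.0359), but was lost in 10 of 12 fits that left out an array (adjusted p up to 0.287). The probe sets 1371241_x_at (−0.33, −0.34 and −0.35, SE 0.14 each) and 1370513_at (−0.11, −0.52 and −0.39, SE 0.21 each) were called lower in the mean of the 3 generations (adjusted p = 0.00445 and 0.0462) and in no single generation. At 1368724_a_at the values were 0.23, 0.09 and 0.05 (SE 0.12 each), none of them called. Signals of 1371240_at, 1.6 to 19.7 on control arrays and 2.4 to 10.9 on vinclozolin arrays, did not pass the filter; this probe set shares its design sequence with 1371241_x_at. Of 15 Tpm1 pairs, limma called 9, 6 and 0 in F1, F2 and F3, with 5 at an unadjusted p under 0.05 in F3. Over all pairs, 37.3%, 29.7% and 2.34% were called.

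Tpm4 encodes a short cytoskeletal tropomyosin of nonmuscle cells. Its probe set 1368838_at gave 775 and 762 in F1 controls, 834 and 837 in F2 controls and 806 and 739 in F3 controls. Vinclozolin arrays gave 315 and 268 in F1, 465 and 283 in F2, and 791 and 623 in F3. The F1 and F2 vinclozolin arrays lay below all control arrays, while those of F3 overlapped the controls. The differences were −1.36 ± 0.17 in F1 (adjusted p = 5.69e-05), −1.17 ± 0.17 in F2 (adjusted p = 0.000422) and −0.13 ± 0.17 in F3 (adjusted p = 0.735), and they depended on generation (F test, adjusted p = 0.0193). With the beta-actin ratio as covariate the F1 and F2 values were 0.40 and −0.02 (adjusted p = 0.863 and 0.992).

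The other Tpm4 probe set, 1371653_at, read 1888 to 2091 on control and 1731 to 1875 on vinclozolin arrays. These did not overlap, as at 7.73% of all tested probe sets with vinclozolin lower. The differences of 1371653_at were −0.11 ± 0.07, −0.16 ± 0.07 and −0.11 ± 0.07, not called singly but called lower in their mean (−0.13 ± 0.04, limma, adjusted p = 0.0258). The pair of Tpm4 probe sets changed unequally in F1 and F2, by −1.24 ± 0.22 and −1.01 ± 0.22 (limma over all pairs, adjusted p = 0.00143 and 0.00686), and gave −0.02 ± 0.22 in F3 (adjusted p = 0.978).

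Tpm2, the beta-tropomyosin of muscle, was not called. At 1372219_at the control signals were 276 to 335 and the vinclozolin signals 312 to 410.2, with differences of 0.22 ± 0.12, 0.20 ± 0.12 and 0.05 ± 0.12 (adjusted p = 0.216, 0.301 and 0.877). The difference in F1 was called without F1 vinclozolin replicate 1 (0.41, adjusted p = 0.00988). Its other probe set, 1392976_at, lay at 2.8 to 23.2 on control and 7.3 to 17.5 on vinclozolin arrays and did not pass the filter.

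**Figure D4:**
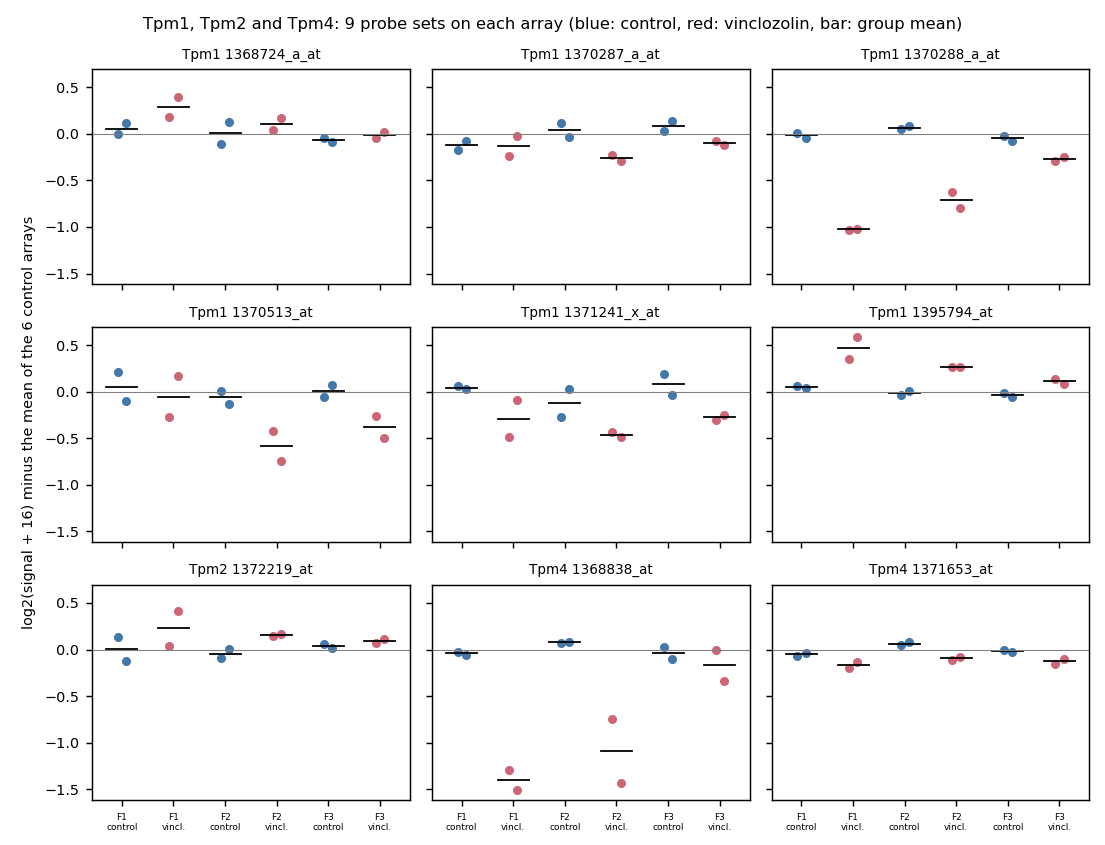
log2(signal + 16) of the 9 tested Tpm1, Tpm2 and Tpm4 probe sets on each array, minus the mean of the 6 control arrays (vertical axis), by group; points are arrays (blue control, red vinclozolin) and bars group means. Tpm1 1370288_a_at is lowest on F1 vinclozolin arrays, Tpm4 1368838_at is low on F1 and F2 vinclozolin arrays, whose ranges overlap, while Tpm1 1395794_at lies above its controls.

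Counted over the 26 probe sets, 9 had all vinclozolin arrays below all control arrays and 2 had all above, where the shares over all tested probe sets were 7.73% and 5.52%. In the mean of the 3 generations 17 were called, 15 lower and 2 higher, against 33.3% of all probe sets, 19.2% lower and 14.1% higher. Acta2 was the 1 smooth muscle probe set among these. The brightest probe set of each gene, taken alone, gave 2 of 9 genes called in F1, 3 in F2 and 2 in F3, all lower, where 19.4%, 9.52% and 2.6% of all genes were called in that fit. None of the 26 differed among the 3 control groups by limma's F test, with 1 at an unadjusted p under 0.05 (0 and 517 of 21729 over all probe sets).

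By a fixed rule of likeness, the 3 genes closest to Acta2 over the 12 arrays were Dpy19l1, Lnpk and Zc3h13. The root mean square difference of their centred log2 values from Acta2 was 0.101, 0.102 and 0.113. For the tropomyosin probe set with the widest range of group means, Tpm3 1387918_at (2.27 on the log2 scale), the closest were Pabpc4 (0.0903), Ubap2 (0.168) and Scd2 (0.206). Their differences in F1, F2 and F3 were −2.01, −1.53 and −0.86 for Pabpc4, −2.19, −1.55 and −0.64 for Ubap2 and −2.40, −1.42 and −0.45 for Scd2.

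The regulators of smooth muscle contraction and its cytoskeleton, a list of 42 genes of which 34 were tested with 58 probe sets, were higher in 2 and lower in 18 probe sets in F1, 2 and 11 in F2, and 0 and 3 in F3, beside 23.1%, 14.3% and 3.11% of all probe sets called in these generations. The median differences were −0.15, −0.10 and −0.08. Myocd, the myocardin coactivator of serum response factor, fell by 0.94 ± 0.15 in F1 and by 1.05 ± 0.15 in F2 and gave 0.06 ± 0.15 in F3. Mylk, the myosin light chain kinase, fell by 1.30 ± 0.19 in F1 at 1384818_at but gave −0.19 ± 0.10 at 1371541_at. Cav1, of membrane caveolae, fell by 1.60 ± 0.16 in F1 at 1370131_at and by 0.80 ± 0.12 at 1393281_at and gave 0.09 ± 0.11 at 1372111_at. Tns1, which links actin to focal adhesions, fell in F1, F2 and F3 at 1371361_at by 1.69, 0.90 and 1.11 (SE 0.23 each), while its other probe set gave −0.24, −0.14 and −0.35 and was not called. Fhl1 1390049_at (−1.13 ± 0.18 in F1) and Cald1, caldesmon, at 1368824_at (−0.80 ± 0.22 in F2) were also called lower. So were Ppp1r12a, a myosin phosphatase subunit, at 1382307_at and Actn4 (−0.57 ± 0.12 and −0.39 ± 0.09 in F3). Not called were Fhl1 1372107_at in F1 (−0.08 ± 0.09) and Cald1 1371969_at in F2 (0.035 ± 0.096). Nor were Ppp1r12a 1376662_at, 1383576_at and 1381850_at in F3 (−0.05, −0.05 and −0.41). Myl9, the regulatory light chain of smooth muscle myosin, rose by 0.32 ± 0.08 in F1 and 0.27 ± 0.08 in F2. Desmin (Des), the muscle intermediate filament, was not called (0.14 ± 0.12, 0.21 ± 0.12 and −0.11 ± 0.12), nor was either probe set of Srf.

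Nonmuscle actomyosin and thin filament genes, 17 tested with 22 probe sets, were higher in 2 and lower in 5 in F1, and 0 and 5 in F2, beside 23.1% and 14.3% of all probe sets called. In F3 limma called 0, with 2 at an unadjusted p under 0.05. Pfn2, a profilin, fell by 1.46 ± 0.12 in F1 and by 0.98 ± 0.12 in F2 at 1367970_at, and its other probe set gave −0.25 and −0.13 and was not called. Arpc2, a subunit of the complex that branches actin filaments, fell by 0.93 ± 0.11 and 0.49 ± 0.11 at 1375137_at and gave 0.03 and −0.01 at 1371511_at. Capza2, of the capping protein, fell by 0.50 ± 0.10 and 0.51 ± 0.10, Myl12b, a nonmuscle myosin light chain, by 0.54 ± 0.13 in F1, and Pfn1, a profilin, and Tmod1, a tropomodulin that caps tropomyosin-coated filaments, by 0.76 ± 0.08 and 0.66 ± 0.20 in F2. Actg1, the cytoskeletal gamma-actin, gave 0.04 ± 0.08, −0.05 ± 0.08 and 0.15 ± 0.08 at 1371327_a_at and was not called. Genes of the peritubular niche, 10 probe sets of 8 genes, were higher in 1 and lower in 3 in F1, 1 and 0 in F2, and 0 and 1 in F3. Of all tested probe sets, 23.1%, 14.3% and 3.11% were called in these generations. Gli1, a target of the hedgehog signal by which Sertoli cells act on myoid cells, gave 0.08 and 0.09 in F1 and F2, not called, and fell by 0.48 ± 0.10 in F3 (adjusted p = 0.0176). Pdgfra, a receptor of interstitial precursor cells, rose by 0.42 ± 0.10 in F1 and 0.36 ± 0.10 in F2. The basement membrane collagen Col4a1 fell in F1 at both probe sets, by 0.94 ± 0.17 and 0.65 ± 0.17, as did fibronectin, Fn1, by 0.56 ± 0.14. Not called in F1 were Col4a2 (−0.23 ± 0.15), Lama2 (−0.09 ± 0.14) and both Lama4 probe sets (−0.39 ± 0.16 and 0.17 ± 0.10).

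Markers of other cells that carry these genes were measured beside them. The sums below add array signals of several probe sets and are carried by the brighter ones. Those of the contractile regulators, 20460 to 20890 on control and 19380 to 20300 on vinclozolin arrays, did not overlap between lineages. Of single tested probe sets, 7.73% were lower on all vinclozolin arrays. Array medians did not overlap either (44.5 to 47.1 on control and 40.5 to 42.8 on vinclozolin arrays). A share for sums was not computed. The niche genes summed to 6032 to 6389 on control arrays and, with vinclozolin, to 4781 to 5968 in F1, 5980 to 6647 in F2 and 5158 to 5555 in F3. Vascular mural cell markers, 12 probe sets of 7 genes, summed to 987 to 1112 on control arrays, and on vinclozolin arrays to 923 to 1070 in F1, 937 to 1008 in F2 and 798 to 921 in F3. Of the 11 tested, where 23.1% and 14.3% of all probe sets were called in F1 and F2, Mcam (1369793_a_at, −0.67 ± 0.17) and Pdgfrb (1370642_s_at, −0.56 ± 0.12) fell in F1, both fell in F2, and none was called in F3, where the smallest adjusted p was 0.0915 (Pdgfrb 1391394_s_at, −0.55 ± 0.17). Another Pdgfrb probe set, 1379211_at, overlapped between lineages (93.8 to 149 on control and 108.5 to 206.5 on vinclozolin arrays), as did Mcam 1374933_at (157 to 215 and 146 to 217). Striated muscle markers, 19 probe sets of 15 genes, summed to 885 to 995 on control arrays and on vinclozolin arrays to 1021 to 1205 in F1, 845 to 948 in F2 and 957 to 958 in F3. Members differed in level. The muscle creatine kinase Ckm was at most 18.7 on any array. The embryonic and perinatal myosins Myh3 and Myh8 were at most 26.6 and 18.5, and Tnnt2 1390061_at at most 11.5. Over all arrays Tnnc1 gave 173 to 343, Tnnt2 1367592_at 145 to 290 and Tnni1 1386873_at 72.6 to 168. In F1, Tnni1 (1386873_at) rose by 0.71 ± 0.17 and Tnnc1 by 0.52 ± 0.15, both troponins. Acta1, skeletal actin, fell by 0.80 ± 0.19 in F1 and by 0.84 ± 0.19 in F2. The other Tnni1 probe set, 1371339_at, was not called in F1. It overlapped between lineages (73.6 to 100.3 on control and 81.7 to 117.4 on vinclozolin arrays). The part of these cells in the Acta2 and tropomyosin values was not tested. In pooled tissue, fewer cells of a type and less RNA per cell cannot be told apart.

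The summed markers of Sertoli cells, 7 probe sets, gave 5095 to 5464 on control and 4679 to 5774 on vinclozolin arrays, and those of fetal Leydig cells, 8 probe sets, 11790 to 12460 and 12540 to 14880. Endothelial markers, 6 probe sets, summed to 875 to 971 and 847 to 1028, erythroid markers, 4 probe sets, to 5411 to 6282 and 6938 to 9279, and mesonephric markers, 8 probe sets, to 1304 to 1538 and 1026 to 1418. Erythroid and Leydig sums were higher on all vinclozolin arrays, as were 5.52% of single tested probe sets. The mesonephric sums of both F1 vinclozolin arrays (1026 and 1299) were below all controls, the lowest of which was 1304. The brightest probe set of that sum was Wt1 1377223_at, at 720.5 to 981, while Pax2 was at most 15.3 and Pax8 1378692_at at most 51.9. Of all tested probe sets, 9.41% were called higher and 13.7% lower in F1, 4.7% and 9.65% in F2, and 1.05% and 2.06% in F3. Members of a list differed in direction. Of 8 Leydig probe sets, Hsd3b1 rose in F1 (0.42 ± 0.11) and Star 1368406_at and Insl3 in F2 and F3 (0.39 to 0.49), while both Lhcgr probe sets (−1.42 ± 0.21 and −0.41 ± 0.12) and Star 1387174_a_at (−0.66 ± 0.11) fell in F1, and Lhcgr 1369033_at (−1.04 ± 0.21) and Star 1387174_a_at (−0.51 ± 0.11) in F2. In F1 the Sertoli gene Cldn11 fell by 0.95 ± 0.18 at 1369609_at and Fgf9 rose by 0.48 ± 0.13 at 1392865_at. The brighter Cldn11 1376711_at, with 864 to 914 on control and 906.5 to 1103 on vinclozolin arrays, was not called in F1. Nor was the dimmer Fgf9 1370747_at, with 46.1 to 54.6 on control and 43.6 to 59 on vinclozolin arrays. The mesonephric Wt1, which Sertoli cells also express, fell at 1369695_at by 1.20 ± 0.17 in F1 and 0.56 ± 0.17 in F2. Pax8 1378692_at fell by 1.07 ± 0.29 in F1. The brighter Wt1 1377223_at overlapped between lineages (814 to 981 on control and 720.5 to 903 on vinclozolin arrays). It was not called in F1 or F2. All 4 erythroid probe sets rose in F3, by 0.46 to 1.05, and Ahsp rose by 1.41 ± 0.16, Hbz by 0.72 ± 0.16 and Hbb by 0.48 ± 0.10 in F1 and Hbz by 0.65 ± 0.16 in F2. The 5 germ cell markers were not matched to a probe set with 1 symbol.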

How the data were processed

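RNA of pooled rat testes was biotin-labelled and hybridised to Affymetrix arrays, per the labels' protocols. The deposited values are linear signal intensity per probe set, with a 2% trimmed mean near 125.03 on every array. The summarisation software is not given in the sources used here. Of 31099 probe sets, 57 controls and the 9313 in the lowest 30% of mean log2(signal + 16), below a signal of 14.8, were left out. The 12 arrays entered 1 limma fit of 6 group means (version 3.58.1, R 4.3.3; eBayes with trend, 6 residual and 8.97 prior degrees of freedom). Pairs of probe sets were fitted likewise without trend. Gene symbols came from the array annotation (20826 probe sets with 1 symbol, 436 with several, 9780 with none); the rat gene table given here held all 9 member symbols. Promoter windows are from RefSeq (GRCr8).

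Named were all probe sets of the 9 genes, up to 4 called probe sets per list and generation, and the 3 genes most alike. Where a list had no call the 2 with the smallest p are not all given. Des, Srf, Actg1, Myl9, Tnnt2, Pax2, Col4a2, Lama2, Lama4 and second probe sets of listed genes were added after their values were seen. Members and lists were chosen with earlier results of these data known. Lists were cell type markers and contractile genes. Alternatives were other pseudocounts, filters and normalizations, fewer arrays, array weights, a replicate block, the beta-actin ratio and 1 probe set per gene. The code was tested on simulated data. The number of arrays limits the precision.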

Additional observations from a re-analysis of the deposited data

Results flagged for a closer look

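At 5 tropomyosin probe sets the size of the vinclozolin minus control difference differed between generations by an F test of the difference itself (limma, adjusted over 21729 probe sets, 2.6% of which were called). These were Tpm1 1370288_a_at (adjusted p = 0.00816), Tpm3 1398303_s_at (adjusted p = 0.00830), Tpm3 1371239_s_at (adjusted p = 0.0130), Tpm3 1370340_x_at (adjusted p = 0.0155) and Tpm4 1368838_at (adjusted p = 0.0193). In all 5 the fall was smaller in F3 than in F1 and F2. The 3 Tpm3 probe sets and their relative 1387918_at (adjusted p = 0.0623) gave similar values, and 1398303_s_at and 1370340_x_at share a design sequence. The count of 5 was 0 without F3 control replicate 2, 1 without F3 control replicate 1 or F3 vinclozolin replicate 1, 2 without F1 control replicate 1 or 2, and 8 without F1 vinclozolin replicate 1. It was 0 with the beta-actin ratio as a covariate.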

How the results depend on the processing

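Over the 29 called single-generation values, no setting without the beta-actin ratio changed a direction. Both pseudocounts and the replicate block kept 29 of 29 calls, array weights and quantile normalization 28, median centring 27, no filter 26 and the arrays of the generation alone 25. Leaving out the lowest 50% of probe sets kept 28 of 28 that could be tested. With the beta-actin ratio as covariate 6 calls were kept and 19 lost, and 4 turned sign without being called: Tpm4 1368838_at in F1 (0.40), Tpm3 1387918_at in F1 and F2 (0.70 and 0.29) and Tpm1 1395794_at in F1 (−0.0411). That fit called 0 member probe sets in F1, in F2, in the mean and for dependence on generation, and 0, 0, 3 and 0 member pairs in F1, F2, F3 and the mean, in place of 52, 51, 21 and 65. The ratio was lower on every vinclozolin array, so that it and the lineage cannot be fully told apart.

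The brightest probe set of each gene gave 2, 3, 2 and 4 called in F1, F2, F3 and the mean and 0 for dependence on generation, from 9 genes tested. Called pairs were 33 in F2 and 39 in the mean with the lowest 50% left out, from 47 pairs in place of 82, and 36 in F3 with log2(value + 64); the cause of the last was not tested. Leaving out single arrays gave 10 to 13 called probe sets in F1, 9 to 15 in F2, 3 to 8 in F3, 13 to 18 in the mean, 0 to 8 for generation and 0 for controls, and 44 to 52, 32 to 59, 0 to 23 and 61 to 66 called pairs. A lone array was then assumed to vary like the other groups.

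Replicate numbers shared by the groups did not mark a pairing: deviations of same-numbered arrays correlated at −0.02, −0.04 and 0.03 in F1, F2 and F3. The replicate block gave 11, 12 and 7 called member probe sets in place of 11, 11 and 7. Quantile normalization, median centring and 1 probe set per gene were not run on pairs. The pseudocount of 16 shrinks differences more the nearer a signal is to it, which touches Cnn1, Actg2 and the dim tropomyosin probe sets most. Some alternatives also called, in single generations, Tpm4 1371653_at (F1 and F2), Tpm1 1371241_x_at (F1, F2 and F3), 1368724_a_at (F1) and 1370288_a_at (F3, array weights, adjusted p = 0.0444).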
